A study of Mus musculus with 16 samples.

Results

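Dendritic cell genes were examined in immune cells sorted from the brains of a Parkinson's disease mouse model. The genes were 8 in number, picked by name, out of 18580 genes listed in any library: Flt3, Zbtb46, Batf3, Xcr1, Clec9a, Cd209a, Irf4 and Ccr7. Each was found by its RefSeq symbol, the values of its transcripts were added up, and a gene not listed in a library was taken as 0. All 8 genes were listed in at least 1 library.

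CD163 is a scavenger receptor of macrophages, and the study compared CD163KO mice (allele CD163tm1.1(KOMP)Vlcg) with WT C57BL/6N littermates of both sexes. The mice, which were 12 weeks old at surgery, received either monomeric α-syn (MONO, the control) or preformed fibrils of it (PFF) by bilateral injection into the striatum, and cells were taken 2 months post-injection (p.i.). From the mice of each sex, genotype and treatment, macrophages (CD11b+ with high CD45) and microglia (CD11b+ with low or intermediate CD45) were sorted and sequenced by SMART-seq2, which copies full-length mRNA from little RNA. This gave 1 library per combination, 8 per population and 16 in all. By the methods, the macrophage gate also takes infiltrated macrophages, neutrophils and NK cells, and 4 to 7 mice entered each group. No dendritic cell was sorted as such. In bulk libraries like these, fewer cells of a type and less RNA per cell cannot be told apart. The study left out CD163KO males given MONO because their technical replicates disagreed, so the tests below rest on the other 14 libraries, 7 per population, and the values of the 2 excluded libraries are given as values.

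Dendritic cells take up antigen in tissue, carry it to lymph nodes and show it to T cells. They descend from bone marrow progenitors under the cytokine receptor FLT3, and conventional dendritic cells are told from other myeloid cells by the transcription factor ZBTB46. The conventional cells fall into a cDC1 branch, which depends on BATF3 and carries XCR1 and the dead-cell receptor CLEC9A, and a cDC2 branch, in which IRF4 acts and which often carries the lectin CD209a. CCR7 guides mature cells of both branches to lymph nodes. In the mouse brain these cells lie mostly in the meninges and choroid plexus and are rare in the parenchyma. Several of the genes are also used by other leukocytes, among them Batf3 and Irf4 in lymphocytes and Cd209a in macrophages and monocytes.

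The genes lie at separate loci of the mouse genome (GRCm38.p6, RefSeq). Flt3 is on chr5:147330741-147400489 on the minus strand and Zbtb46 on chr2:181371009-181493262 on the minus strand. Batf3 is on chr1:191098414-191108943 on the plus strand, Xcr1 on chr9:123852315-123862029 on the minus strand and Clec9a on chr6:129408862-129424764 on the plus strand. Cd209a is on chr8:3743395-3748984 on the minus strand, Irf4 on chr13:30749233-30766981 on the plus strand and Ccr7 on chr11:99144199-99155077 on the minus strand. On the same strand, the start of Clec9a overlaps the end of Clec1b, Gm43914 lies within Clec9a and the small nuclear RNA gene Gm22708 within Zbtb46, and Flt3 overlaps the antisense gene Gm26597, so reads from the overlaps cannot be assigned with certainty.

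The promoters of Cd209a and Batf3 are shown because these genes had the highest levels of the 8, Cd209a in macrophages and Batf3 in microglia. Each sequence runs 5′ to 3′ on the strand of the gene, from 250 bases before to 50 bases after the RefSeq start. Capitals mark matches to the ETS core GGAAGT on either strand and to an ETS-IRF composite motif (GGAA and GAAA with 2 bases between them, on either strand).
Cd209a, chr8:3748935-3749234, minus strand: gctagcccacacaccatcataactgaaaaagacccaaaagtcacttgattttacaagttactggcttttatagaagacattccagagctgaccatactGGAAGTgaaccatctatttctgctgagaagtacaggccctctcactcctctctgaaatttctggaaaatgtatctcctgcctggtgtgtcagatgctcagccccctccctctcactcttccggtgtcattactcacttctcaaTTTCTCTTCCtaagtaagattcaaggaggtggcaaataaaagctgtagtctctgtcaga
Batf3, chr1:191098164-191098463, plus strand: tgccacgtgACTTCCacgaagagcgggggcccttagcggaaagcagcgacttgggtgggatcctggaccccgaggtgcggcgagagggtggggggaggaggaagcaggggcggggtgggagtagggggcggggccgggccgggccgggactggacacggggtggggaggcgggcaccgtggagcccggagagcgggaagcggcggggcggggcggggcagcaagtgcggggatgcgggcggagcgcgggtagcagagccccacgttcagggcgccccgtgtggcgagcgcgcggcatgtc
Cd209a had 1 ETS core and, overlapping its start, 1 composite motif on the opposite strand, and Batf3 had 1 ETS core on the opposite strand. Of the 7 members with a promoter in the table, 4 held an ETS core (Cd209a, Batf3, Flt3 and Xcr1), as did 23.8% of all 32851 promoters. The composite motif was in 1 of the 7 and in 2.72% of all promoters. These matches are descriptions of the letters and not binding sites.

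The reads assigned to transcripts, as estimated counts, summed to between 12170686 and 21433841 in a macrophage library and to between 8648751 and 18768238 in a microglia library, so that 3 counts, the limit that a count of 0 allows, corresponded to 0.140 to 0.347 CPM, a count scaled to library size (counting error only). Macrophages of PFF-WT males and of the excluded MONO-CD163KO males stood apart: the median Pearson correlation of log2(FPKM + 1) with the other macrophage libraries was 0.721 and 0.785, against 0.921 to 0.936 in the other 6. The deleted gene followed the labels in macrophages, where Cd163 had 748 to 5275 counts in the 4 WT libraries and 0 or 1 in the 4 CD163KO libraries. Microglia had 0 to 101 counts of Cd163 with overlap of the genotypes. Summed over 12 genes each, neutrophil genes reached 22181.8 to 134672 FPKM in macrophages, border-associated macrophage genes 1972.78 to 5449.11 FPKM and monocyte genes 470.65 to 4076.37 FPKM, so dendritic cell genes were measured here in a mixture of cells.

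FPKM divide a count by transcript length and by library size, so levels of different genes can be set side by side on this scale. In macrophages, Cd209a had by far the highest median level of the 8 genes, 864 FPKM, followed by Batf3 with 20.5 FPKM. Zbtb46 (2.98 FPKM), Ccr7 (2.11 FPKM), Flt3 (1.59 FPKM), Irf4 (0.88 FPKM), Xcr1 (0.745 FPKM) and Clec9a (0.15 FPKM) came next, and in this order the ranges of neighbours over the 8 libraries overlapped from Batf3 downwards. In microglia, Batf3 led with a median of 44.9 FPKM and its range lay above that of Cd209a, with 2.16 FPKM. The other 6 genes had a median below 1 FPKM in microglia, and for Ccr7 and Clec9a it was 0.

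**Figure D1:**
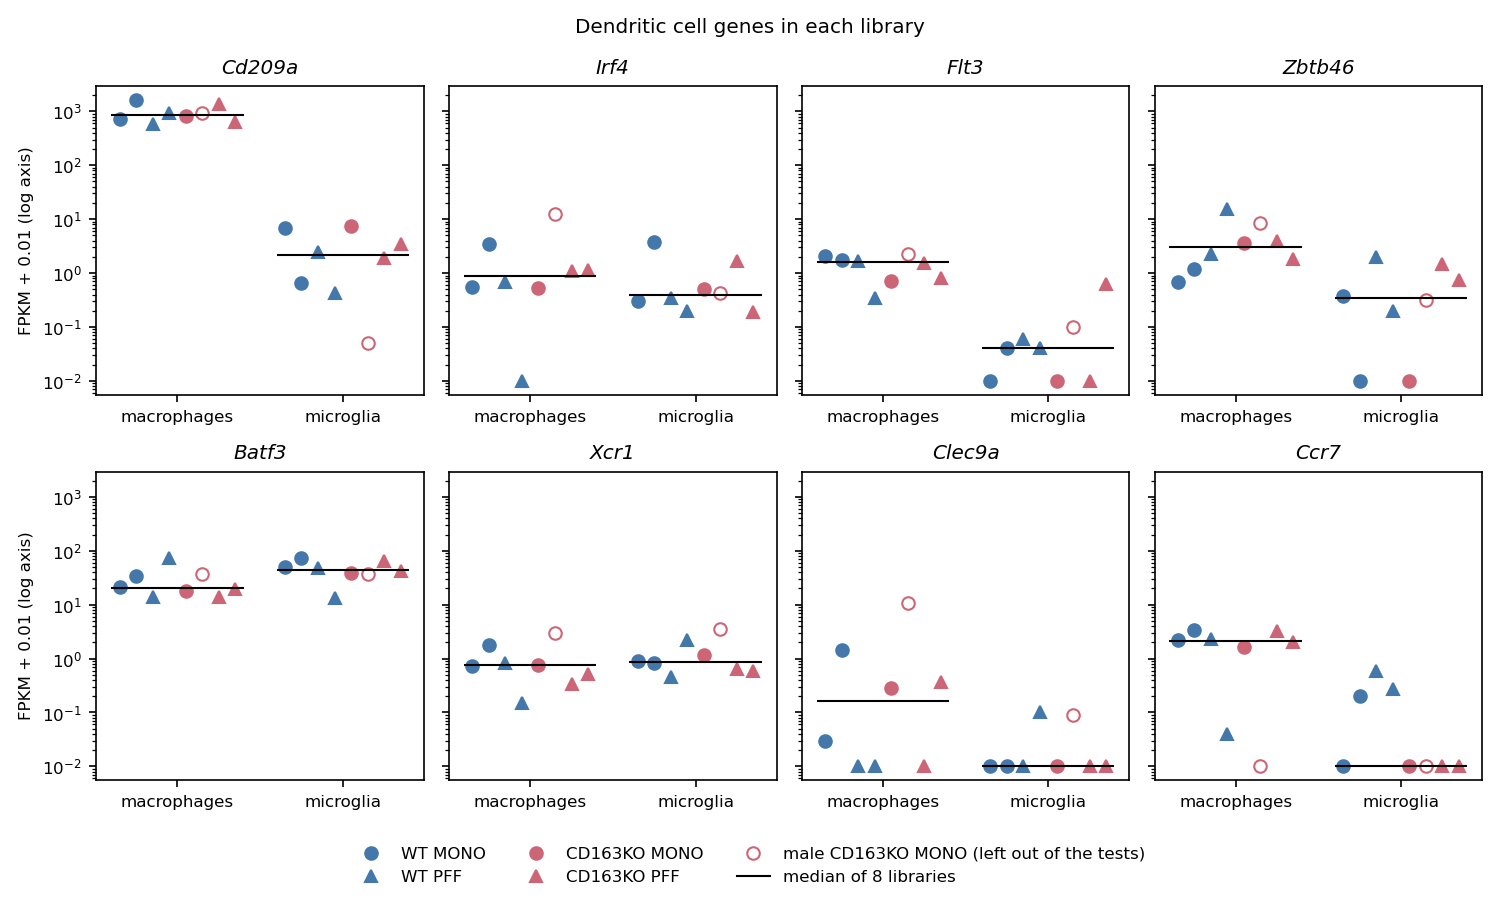
FPKM of the 8 dendritic cell genes in each library, with 0.01 added and a log axis, in macrophages (left of each panel) and microglia (right). Within each population the libraries are ordered by genotype, treatment and sex, open circles are the excluded libraries and lines are medians of 8 libraries. Cd209a lies between 593 and 1621 FPKM in macrophages and at most at 7.44 FPKM in microglia, while Batf3 overlaps between the populations.

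The population comparison asks which of the genes belong to the CD45-high gate and which to microglia. It was fitted by edgeR's quasi-likelihood test with the matched combination of sex, genotype and treatment as a block, and a gene was called at a Benjamini-Hochberg adjusted p of at most 0.05 over all 13704 genes tested and a log2 fold change of at least 1. Cd209a, Flt3, Zbtb46 and Ccr7 were higher in macrophages, none of the 8 was lower, and Clec9a, Irf4, Xcr1 and Batf3 did not pass the test. Of all genes tested, 10.6% were higher and 6.22% lower in macrophages, and the median log2 fold change was -0.37 over all genes and 4.65 over the 8 members. Both medians are of the fit with TMM scaling. With limma on log2(FPKM + 1) each tested member had a smaller value, such as 0.997 for Flt3 and 1.34 for Ccr7. The median over all genes was then -1.05. The methods state that triplicates were sequenced but not whether a table holds 1 of them or all. The p-values of this fit measure how the difference between populations varies over the 7 matched combinations. In the later fits they measure the spread between libraries of different combinations. Neither measures the spread between replicates of 1 combination.

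Cd209a encodes a C-type lectin that binds mannose-rich glycans, one of the mouse relatives of human DC-SIGN. It had 14355 to 44732 counts (median 864 FPKM, range 593 to 1621 FPKM) in the 8 macrophage libraries, where it ranked between the 47th and the 80th most abundant gene by FPKM. In microglia it had 1 to 175 counts (median 2.16 FPKM, range 0.04 to 7.44 FPKM). The populations did not overlap, and macrophages were higher in 8 of 8 matched combinations. The log2 fold change was 10.01 ± 0.62 (SE, adjusted p = 1.58e-06, n = 7 pairs, edgeR), and Cd209a was called in 24 of 24 settings of the analysis. All counts of its single transcript were whole numbers. The microglial level was a median of 0.275% of the macrophage level in the same combination (range 0.00436% to 0.922%), compared with 2.91% (0.628% to 6.83%) for the summed border-associated macrophage genes and 2.04% (1.09% to 5.31%) for the neutrophil genes.

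Flt3, the receptor of the cytokine that expands dendritic cell progenitors, had 22 to 156 counts in macrophages (median 1.59 FPKM, range 0.33 to 2.27 FPKM). Microglia had 0 to 37 counts (median 0.03 FPKM), 7 of 8 libraries were at 6 counts or fewer and PFF-CD163KO males held the highest value, 0.63 FPKM, above the lowest macrophage library. Macrophages were higher in 8 of 8 combinations, with a log2 fold change of 6.81 ± 1.68 (SE, adjusted p = 0.0151, edgeR). The call was kept in 10 of the 14 fits that left out 1 library (adjusted p from 0.000383 to 0.0697). The partner of a library left out then stands alone in its block and gives no comparison. The 14 fits so amount in effect to leaving out each of 7 pairs, and cannot tell which library of a pair matters. With limma on log2(FPKM + 1) the log2 fold change was 0.997, under the limit of 1, at an adjusted p of 0.00745 with the filter and 0.00849 without it.

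Zbtb46, the transcription factor that marks the conventional lineage, was also higher in macrophages in 8 of 8 combinations. It had 23 to 636 counts there (median 2.98 FPKM, range 0.66 to 15.6 FPKM), with PFF-WT males highest and MONO-WT females lowest. The highest value included 320.87 counts of a second transcript, which had at most 2.44 counts in any other library. Microglia had 0 to 79 counts (median 0.335 FPKM, range 0 to 1.95 FPKM), and the populations overlapped. The log2 fold change was 4.30 ± 1.16 (SE, adjusted p = 0.0237, edgeR), which held in 8 of 14 fits without 1 library (adjusted p from 0.00504 to 0.0590) and missed the threshold when libraries were compared by their sizes with no scaling factor (3.00, adjusted p = 0.0521) and with limma on log2(FPKM + 1) without a filter (1.32, adjusted p = 0.0677).

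Ccr7, the receptor for the lymph node chemokines CCL19 and CCL21, split the macrophage libraries. It had 38 to 124 counts (1.60 to 3.34 FPKM) in 6 of them and 0 or 1 count in the 2 that stood apart, MONO-CD163KO males and PFF-WT males. In microglia 5 of 8 libraries were at 0 and the highest, PFF-WT females, had 17 counts (0.57 FPKM). All microglial counts, and the 1 count in macrophages of PFF-WT males, were of a second transcript. It had at most 10.05 counts in any other macrophage library, where the first transcript held most counts. Macrophages were higher in 6 of 8 combinations and lower in 1, PFF-WT males, with 1 count in macrophages and 9 in microglia. The log2 fold change was 6.92 ± 2.11 (SE, adjusted p = 0.0414, edgeR). It held in 2 of 14 fits without 1 library, both of them breaking the pair of PFF-WT males (adjusted p = 0.000275 without their macrophages). Otherwise the adjusted p rose to as much as 0.122. With limma the log2 fold change was smaller, 1.34 on log2(FPKM + 1) and 3.14 on log2(FPKM + 0.1), and was called in both.

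Batf3, the transcription factor required for cDC1 cells, overlapped between the populations, with a higher median in microglia. Macrophages had 108 to 889 counts (median 20.5 FPKM, range 13.7 to 72.4 FPKM) and microglia 166 to 742 counts (median 44.9 FPKM, range 13.5 to 72.1 FPKM). On the FPKM scale microglia were higher in 7 of 8 combinations, and PFF-WT males, with 72.4 FPKM in macrophages and 13.5 FPKM in microglia, were the exception. The fitted log2 fold change was 0.52 ± 0.37 (SE, adjusted p = 0.367, edgeR), and its sign was opposite, -1.01, with no scaling factor (adjusted p = 0.251) and -0.87 with limma on log2(FPKM + 0.1) (adjusted p = 0.194). No setting called a difference.

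Xcr1, the receptor of the chemokine XCL1 on cDC1 cells, was low in both populations, with 11.1 to 252 counts in macrophages (median 0.745 FPKM, range 0.14 to 3.01 FPKM) and 31.4 to 286 counts in microglia (median 0.855 FPKM, range 0.44 to 3.58 FPKM). The populations overlapped, and the excluded MONO-CD163KO males were highest in both. Its log2 fold change of 1.33 ± 1.09 (SE, adjusted p = 0.432, edgeR) turned to -0.46 with no scaling factor. All 16 of its estimated counts were fractional, so RSEM shared its reads with other transcripts and its level is uncertain.

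Clec9a, which binds actin filaments exposed by dead cells, was listed in 5 macrophage libraries, with 592 counts (10.8 FPKM) in the excluded MONO-CD163KO males, 82 counts (1.46 FPKM) in MONO-WT males, 22 counts in PFF-CD163KO males, 10 counts in MONO-CD163KO females and 1 count in MONO-WT females. The other 3 were at 0, as were 6 of 8 microglia libraries, and the highest microglial value was 5 counts. The log2 fold change was 5.01 ± 2.48 (SE, adjusted p = 0.200, edgeR). With 3 of 7 macrophage libraries at 0 this fitted value depends on how counts of 0 are handled.

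Irf4, the transcription factor of the cDC2 branch, ranged from 0 counts in macrophages of PFF-WT males to 1125 counts (12.6 FPKM) in the excluded MONO-CD163KO males, with 317 counts (3.47 FPKM) in MONO-WT males and 30 to 114 counts in the other 5 libraries. Microglia had 12 to 156 counts (median 0.375 FPKM, range 0.18 to 3.83 FPKM) and overlapped with macrophages. The log2 fold change was 1.88 ± 1.29 (SE, adjusted p = 0.340, edgeR), and 0.09 with no scaling factor.

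The number of calls turned on single matched pairs, since a library left out takes the comparison with its partner away. Without the macrophages of PFF-WT males, 6 of the 8 members were called higher in macrophages, Irf4 (2.45, adjusted p = 0.0158) and Xcr1 (1.85, adjusted p = 0.0392) in addition to the 4 above, and 4038 genes were called in all in place of 2311. Without the macrophages of PFF-CD163KO females or those of PFF-WT females, Cd209a alone was called. The count was 2 without the macrophages of MONO-WT females, MONO-WT males or PFF-CD163KO males and without the microglia of PFF-WT females, MONO-WT males or PFF-CD163KO males. Calls over all genes moved as well, with 1684 in the setting with the fewest against 2311 in the main fit. Whether the members lost calls more often than other genes was not tested. With the 2 excluded libraries added, the log2 fold change of Ccr7 was 6.88 and its adjusted p 0.0511 (edgeR). Cd209a, Flt3 and Zbtb46 were called there, beside 9.25% of all genes called higher and 5.95% lower.

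**Figure D2:**
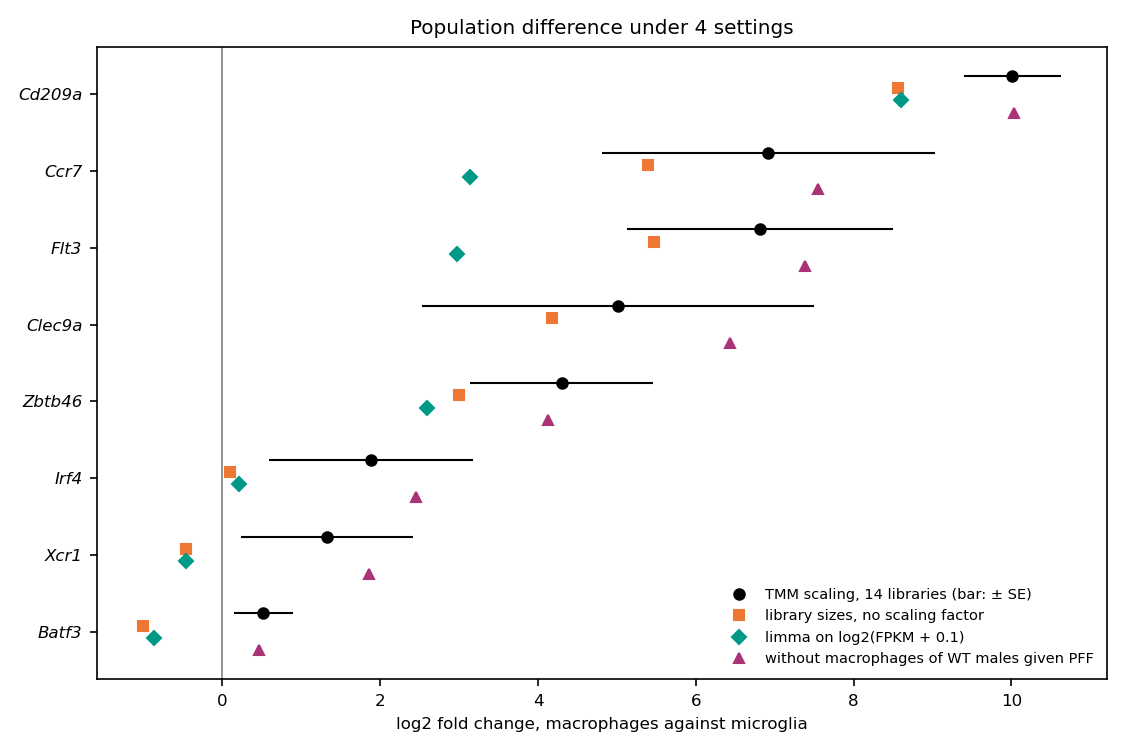
Log2 fold change of macrophages against microglia for the 8 genes (x axis, log2 scale) under 4 settings: edgeR with TMM scaling on 14 libraries (circles with SE), edgeR with library sizes and no scaling factor, limma on log2(FPKM + 0.1), in which Clec9a was not tested, and edgeR without macrophages of WT males given PFF. Cd209a stays between 8.57 and 10.04, while Batf3 and Xcr1 change sign with the scaling.

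The question of the knockout, whether loss of CD163 or PFF changes the dendritic cell genes, was fitted within each population with sex, treatment and genotype as terms. In macrophages, none of the 8 genes was called between CD163KO and WT, between PFF and MONO or between males and females, and none had an unadjusted p under 0.05 (edgeR; DESeq2 called 0 members as well). Of all 11988 genes tested, 0.00834% were called for the genotype, which is Cd163 itself, and 0% for PFF and 0% for sex, with 79, 125 and 152 genes at an unadjusted p under 0.05. In microglia, 5 members passed the filter on low counts (Batf3, Cd209a, Irf4, Xcr1 and Zbtb46) and 0 of them were called in any of the 3 comparisons, in which 0% of 12725 genes were called and 166, 765 and 215 had an unadjusted p under 0.05. These fits left 3 residual degrees of freedom, and a p that misses the threshold does not show that the groups were alike.

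Cd209a in macrophages had 734 and 1621 FPKM in MONO-WT females and males, 593 and 948 FPKM in PFF-WT females and males, 812 FPKM in MONO-CD163KO females, 1344 and 628 FPKM in PFF-CD163KO females and males, and 917 FPKM in the excluded MONO-CD163KO males. Genotypes and treatments overlapped, and the highest and the lowest library were both WT. In pairs of the same sex and treatment CD163KO was higher in 2 of 3 by FPKM and in 3 of 3 after TMM scaling. The fitted log2 fold changes were 0.39 ± 0.50 for CD163KO and -0.08 ± 0.49 for PFF (SE, adjusted p = 1 for both, edgeR), and the first ran from 0.15 without PFF-WT males to 0.94 without PFF-WT females. In microglia they were 0.67 ± 1.18 for CD163KO and -0.54 ± 1.46 for PFF (SE, adjusted p = 1.00 and 0.973, edgeR), and the first ran from 0.025 without PFF-CD163KO males to 1.20 without MONO-WT females.

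Zbtb46 was higher under PFF than under MONO in 3 of 3 pairs of the same sex and genotype in both populations on the FPKM scale. Such agreement was picked out of all 8 genes, both populations and 3 comparisons. Its share over all genes was not counted, so agreement in pairs, here and below, is a description. In macrophages it went from 0.66 to 2.28 FPKM in WT females, from 3.68 to 3.86 FPKM in CD163KO females and from 1.19 to 15.6 FPKM in WT males, whose PFF library is one of those that stood apart. Of its 15.6 FPKM, 8.85 FPKM came from a second transcript hardly counted in other libraries and 6.76 FPKM from the usual one. In microglia it went from 0.36 to 1.95 FPKM, from 0 to 1.45 FPKM and from 0 to 0.19 FPKM in the same order. The difference did not pass the test in macrophages (log2 fold change 1.43 ± 1.25 SE, adjusted p = 1, edgeR) or in microglia (4.93 ± 2.72 SE, adjusted p = 0.776, edgeR), and after TMM scaling 2 of 3 macrophage pairs were higher. When each library was left out the fold change ran from 0.77 to 2.91 in macrophages (0.91 without PFF-WT males) and from 3.69 to 8.36 in microglia, and was called in no case. With the excluded libraries, the CD163KO male macrophages ran the other way, from 8.35 to 1.78 FPKM.

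Clec9a was lower under PFF in 3 of 3 macrophage pairs, at 0 in 3 of the 4 PFF libraries and at 22 counts in PFF-CD163KO males, but MONO-WT females had only 1 count and MONO-CD163KO females 10 (adjusted p = 1, edgeR). Batf3 was higher in males in 3 of 3 macrophage pairs, from 13.7 to 21.4 FPKM in the 4 female libraries and from 19.7 to 72.4 FPKM in the 3 male ones, with overlap (log2 fold change 0.42 ± 0.66 SE, adjusted p = 1.00, edgeR). The highest, PFF-WT males, stood apart, and the fold change was 0.34 without it and ran from 0.19 to 0.72 when each library was left out. Flt3 was lower in males in 3 of 3 macrophage pairs (log2 fold change -1.09 ± 1.36 SE, adjusted p = 1.00, edgeR), with a range of -2.04 to -0.48 when each library was left out. On the FPKM scale Batf3 was lower in CD163KO than in WT in 3 of 3 macrophage pairs, although 1 of 3 was higher after TMM scaling (log2 fold change -0.16 ± 0.64 SE, adjusted p = 1, edgeR). In microglia Cd209a was lower under PFF in 3 of 3 pairs by FPKM, with 1 of 3 higher after TMM scaling, and Zbtb46 was lower in males in 3 of 3 pairs (log2 fold change -1.95 ± 2.28 SE, adjusted p = 1.00, edgeR), with a range of -3.76 to -1.08 when each library was left out. For CD163KO in microglia Zbtb46 was higher in 1 of 3 pairs by FPKM and in 0 of 3 after TMM scaling. The ranges of every member overlapped between genotypes, between treatments and between sexes in each population.

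Whether genotype or PFF acted differently on macrophages and microglia was tested by interaction terms over both populations. None of the 8 genes was called for either term, where 0% and 0.0073% of 13704 genes were, and 167 and 226 genes had an unadjusted p under 0.05. The genotype term of Ccr7 was the one member with an unadjusted p under 0.05 (log2 6.36 ± 2.57 SE, unadjusted p = 0.0329, adjusted p = 1, edgeR). Its range was 4.93 to 9.60 when each library was left out, and it rests on microglial counts of 0 in the 3 CD163KO libraries of the fit and of 0, 3, 9 and 17 in the 4 WT libraries. These microglial counts were all of the second transcript. DESeq2 called 0 members for either term.

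Other genes of the same cell types, from lists of textbook markers, were read in the same population fit. Of 13 tested genes common to dendritic cells 6 were higher and 0 lower in macrophages, of 12 cDC2 genes 4 were higher and 1 lower, and of 14 genes of mature migratory cells 2 were higher and 1 lower, beside 10.6% higher and 6.22% lower over all genes tested, a share to which the mature migratory count is near. Of 14 cDC1 genes 5 were higher and 3 lower, and of 11 genes of plasmacytoid dendritic cells 3 were higher and 2 lower. With no scaling factor the cDC1 genes stood at 3 higher and 7 lower, the plasmacytoid genes at 3 and 4, the mature migratory genes at 3 and 3, the common genes at 6 and 2 and the cDC2 genes at 3 and 1, where 4.36% of all genes were higher and 41.6% lower, so a gene's direction is relative to the scaling. Without the macrophages of PFF-WT males 10 common, 6 mature migratory and 5 plasmacytoid genes were higher, beside 14.6% of all genes, and DESeq2's Wald test gave the same 3 counts beside 14.3%. Medians of the log2 fold changes were 4.77, 3.37, 3.62, 0.42 and -0.27 in the order given, beside -0.37 over all genes, and these too moved with the scaling. With no scaling factor they were 3.52, 2.13, 2.06, -0.99 and -1.73, beside -1.96 over all genes. With limma on log2(FPKM + 1), which tested 9 to 13 genes of each list, they were 0.88, 0.79, -0.02, -1.02 and -0.59, beside -1.05, so the cDC1 median had the opposite sign under both settings and the mature migratory median under the second. With additive terms in place of the block the cDC1 median was -0.12. Border-associated macrophage genes were higher in 12 of 12 cases and monocyte genes in 11 of 12, and their part in the results for the dendritic cell genes was not tested.

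The named genes of these lists, the 3 with the largest rise and the 3 with the largest fall in the main edgeR fit, were called in 24 of 24 settings. The order moved with the setting. With limma on log2(FPKM + 1), Clec10a (7.11) and Mgl2 (6.72) of the cDC2 list rose more than all 3 named genes that rose. Cd7, an immunoglobulin-family receptor listed for cDC2 cells and also carried by NK and T cells, had 0 to 1114 counts in macrophages and at most 1 in microglia (log2 fold change 11.57, adjusted p = 0.00149, edgeR). Ccl17, a chemokine for CCR4-bearing T cells, had 140 to 646 counts and at most 2 (11.00, adjusted p = 2.28e-06, edgeR). Kmo, an enzyme of tryptophan breakdown, had 0 to 445 counts and at most 10 (10.92, adjusted p = 0.00584, edgeR). Over the settings these log2 fold changes ran from 3.76 to 11.83 for Cd7, from 5.35 to 11.51 for Ccl17 and from 1.80 to 11.09 for Kmo. All 3 were lowest with limma on log2(FPKM + 1). The 3 named genes that were lower in macrophages belong to the lists of plasmacytoid and cDC1 cells and are also used by microglia. They were Lag3 (-5.07, adjusted p = 0.000254, edgeR) with 67.97 to 528 FPKM in microglia, Siglech (-3.30, adjusted p = 5.96e-06, edgeR) with 277 to 773 FPKM, and the double-stranded RNA receptor Tlr3 (-4.22, adjusted p = 0.00923, edgeR) with 2.34 to 28.2 FPKM. The lectins Clec10a and Mgl2, which share cDC2 cells and macrophages with Cd209a and were chosen after their values were seen, had 102 to 268 FPKM and 301 to 956 FPKM in macrophages and at most 0.69 and 7.73 FPKM in microglia. Of the ligands, Flt3l had a median of 5.45 FPKM in macrophages and 4.40 FPKM in microglia, and Xcl1 and Ccl19 had medians below 1 FPKM in both. None of the 3 was called, whereas 1 was called higher in macrophages with no scaling factor (4.36% of all genes) and 2 were without the macrophages of PFF-WT males (14.6%) or with additive terms in place of the block (13.2%).

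**Figure D3:**
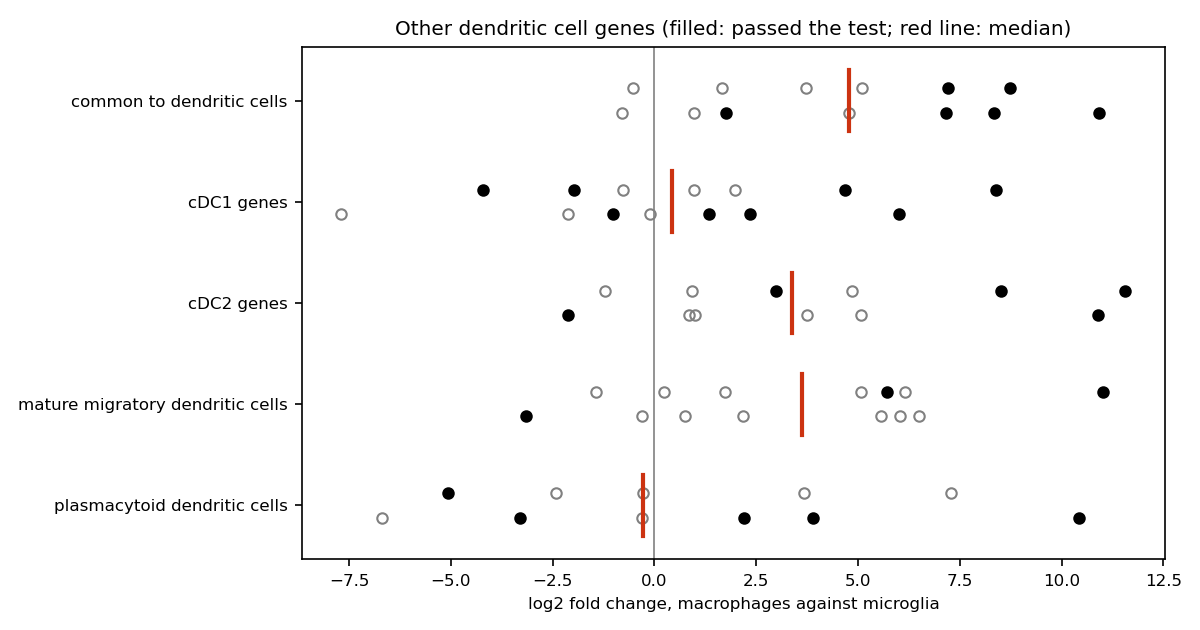
Log2 fold change of macrophages against microglia (x axis, log2 scale) for the tested genes of 5 lists, each circle 1 gene, filled where it passed the test, with the median of each list as a red line. Genes common to dendritic cells, cDC2 genes and mature migratory genes have medians of 4.77, 3.37 and 3.62, and the cDC1 and plasmacytoid lists of 0.42 and -0.27, all with TMM scaling. With no scaling factor the cDC1 and plasmacytoid medians are -0.99 and -1.73, and with limma on log2(FPKM + 1) the mature migratory median is -0.02.

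Across the 8 macrophage libraries, Cd209a moved with the summed FPKM of the 12 border-associated macrophage genes, from 593 FPKM beside a sum of 1972.78 in PFF-WT females to 1621 FPKM beside a sum of 5449.11 in MONO-WT males. Pearson's r on the log2 scale was 0.866 over 8 libraries and 0.952 over the 6 that did not stand apart, the highest of 12 lists in both cases. With the 5 lists of other dendritic cell genes r was between 0.362 (genes common to dendritic cells) and 0.65 (mature migratory genes) over 8 libraries and between 0.523 and 0.752 over 6, and with the 6 remaining lists, among them monocytes (0.278 and 0.342) and neutrophils (0.0669 and 0.0656), it was at most 0.582 and 0.767. These correlations are descriptions over libraries that share a gate and differ in depth, and the list includes Cd209f and Cd209g, relatives of Cd209a whose counts were partly fractional.

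**Figure D4:**
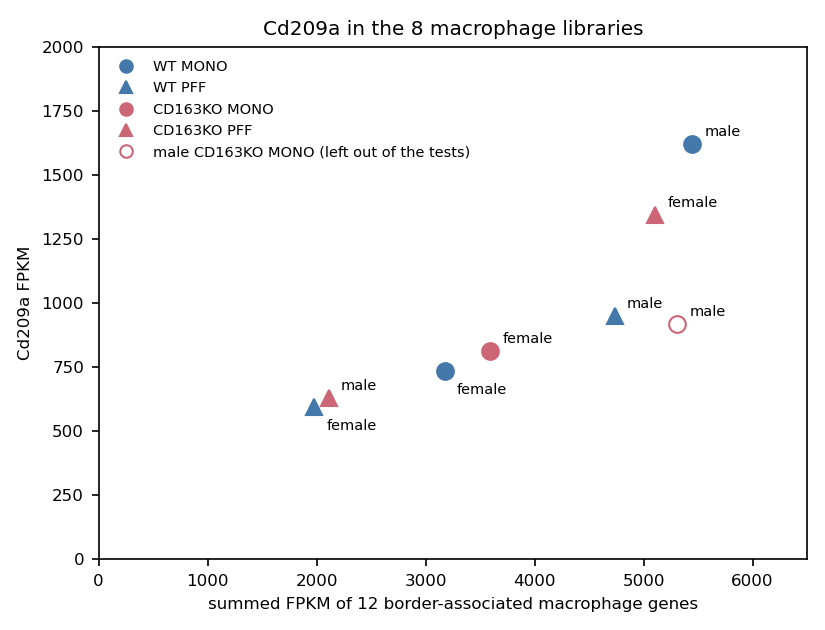
FPKM of Cd209a (y axis) against the summed FPKM of 12 border-associated macrophage genes (x axis) in the 8 macrophage libraries, both axes linear and starting at 0, with sex written beside each point. Cd209a is lowest, at 593 and 628 FPKM, in the 2 libraries with the lowest sums, 1972.78 and 2109.3 FPKM.

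Among the members themselves, Xcr1, Clec9a and Irf4 had the closest patterns over the 8 macrophage libraries, with r of 0.893 for Irf4 with Xcr1 and with Clec9a and 0.859 for Xcr1 with Clec9a, on log2(CPM + 1). Without the 2 libraries that stood apart the values were 0.551 for Irf4 with Xcr1, 0.813 for Irf4 with Clec9a and 0.745 for Xcr1 with Clec9a, and the order changed, with Batf3 and Clec9a closest (0.874, against 0.327 over 8 libraries). Ccr7 and Zbtb46 had r of -0.824 over 8 libraries and -0.132 over 6, so that value rested on the libraries that stood apart. Of 11987 other genes, the 3 with the pattern nearest to Cd209a were S100a1 (r = 0.961), Psmc3 (0.938) and Tlcd2 (0.938), and those nearest to Flt3 were Acta2 (0.982), Cd99l2 (0.971) and Map1s (0.965). For Zbtb46 they were Vapb, 2810004N23Rik and Zswim4 (0.955 to 0.974), for Batf3 Gcat, Parvb and Rpl4 (0.987 to 0.993), for Xcr1 Tmem150a, Cpne8 and Tnni3 (0.973 to 0.978) and for Clec9a Rsad1, Stat5a and Hmgxb3 (0.979 to 0.986). For Ccr7 they were Slc46a1, Mocs2 and Kat14 (0.985 to 0.996), and Irf4 had Slc39a6 (0.981) and Ankrd13a (0.980) among its nearest genes. Over the 6 libraries that did not stand apart, r was 0.948, 0.824 and 0.797 for the genes of Ccr7, in the order given. It lay between 0.897 and 0.988 for the genes named for the other members. None of these named genes is on the dendritic cell lists, and with 8 libraries and 11987 genes such values are descriptions of the libraries.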

How the data were processed

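Macrophages and microglia sorted from mouse brain were sequenced by the SMART-seq2 method, with 1 table for each of 16 combinations of population, sex, genotype and treatment. The authors removed rRNA reads and reads of low quality, mapped the rest with Bowtie2 and quantified RefSeq transcripts with RSEM. The submitters' notes name the build mm10 and no versions. The deposited estimated counts (RSEM expected counts) are not normalized, and the deposited FPKM were scaled by the authors for transcript length and assigned reads. Triplicates were sequenced, and the sources used here do not say if a table is 1 of these or a pool. Mice came in 2 batches that the labels do not tie to libraries. The methods also describe a batch correction and the removal of 3 outlier samples by principal components; the labels tie neither to a table here, and neither was repeated.

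Symbols were matched for 27632 of 27787 transcripts (the rest held no more than 0.13% of any library's counts), values were summed to 18580 genes, and estimated counts were rounded to whole numbers. Genes with low counts were removed by filterByExpr, libraries were scaled by TMM, and edgeR's quasi-likelihood test gave Benjamini-Hochberg adjusted p-values over all genes tested. Populations were compared with the matched combination as a block, and genotype, treatment and sex as additive terms within each population. CD163KO males given MONO, which the study excluded, entered as an alternative. Alternatives were DESeq2's size factors and Wald test, no filter, no limit on the fold change, limma on log2(FPKM + 1) and log2(FPKM + 0.1) over genes with at least 1 FPKM in 2 libraries, additive terms in place of the block and leaving out each library. Library sizes with no scaling factor were added after seeing the data.

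The members and lists were chosen with earlier results of these data known. The 8 members are always named, with the 3 called genes of the other lists that rose most and the 3 that fell most, and the 3 genes nearest to each member by Pearson's r in macrophages; 1 gene that meets this rule is not reported here. The fits were tested on simulated data. Promoter sequences came from RefSeq (GRCm38.p6, 7 of 8 members). R 4.3.3, edgeR 4.0.16, DESeq2 1.42.0, limma 3.58.1, Python 3.11.15, pandas 2.3.3, numpy 2.4.6 and matplotlib 3.10.9 were used.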

Additional observations from a re-analysis of the deposited data

Results flagged for a closer look

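Among 16 sets of 8 libraries (8 genes in each population), 6 had a highest value far above the next one and none a lowest value far below. Chance gives such a gap in about 1 of 20 sets of normally distributed replicates, which sets of libraries of different sex, genotype and treatment were not shown to be. In macrophages these were Batf3 in PFF-WT males (72.38 FPKM), and Irf4 (12.58 FPKM) and Clec9a (10.78 FPKM) in the excluded MONO-CD163KO males. In microglia they were Flt3 in PFF-CD163KO males (0.63 FPKM), Ccr7 in PFF-WT females (0.57 FPKM) and Irf4 in MONO-WT males (3.83 FPKM).

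The libraries of MONO-CD163KO males, which the tests do not use, held the highest value of their population for 5 of the 16 sets. In macrophages these were Irf4 at 12.58 FPKM (next highest 3.47 FPKM), Clec9a at 10.78 FPKM (1.46 FPKM), Xcr1 at 3.01 FPKM (1.77 FPKM) and Flt3 at 2.27 FPKM (2.05 FPKM), and in microglia Xcr1 at 3.58 FPKM (2.23 FPKM). Ccr7 was at 0 in both of these libraries. No member passed an interaction test between the populations.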

How the results depend on the processing

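In the population comparison the number of members called was 4 and lay between 1 and 6 when each library was left out in turn. It was 2 with limma on log2(FPKM + 1) without a filter, beside 2.7% of all genes called higher and 23.8% lower. Batf3 turned from 0.52 to -0.85 with limma on log2(FPKM + 1), with or without the filter, to -0.87 with log2(FPKM + 0.1) and to -1.01 with no scaling factor. Xcr1 turned from 1.33 to -0.19, -0.46 and -0.46 under the same settings. The median log2 fold change of all genes was -0.37 with TMM, -0.44 with DESeq2's size factors and -1.96 with no scaling factor, and the cause was not tested. Cd209a under PFF turned to 0.18 in macrophages and 0.49 in microglia with the excluded libraries. When each library was left out its range was -0.55 to 0.59 for macrophages and -1.65 to 0.22 for microglia, and Batf3 for CD163KO in macrophages, -0.16 with all libraries, had a range of -0.57 to 0.085. None of these values was called. The count of members called for genotype, PFF, sex or an interaction was 0 in each setting run. Over all genes, the setting with the most calls had 5 and 19 for genotype in macrophages and microglia. It had 13 and 25 for PFF, 17 and 20 for sex, and 197 and 231 for the genotype and PFF interactions. The main fits tested 11988 to 13704 genes.

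All genes called between the populations numbered 2311 (1459 higher, 852 lower), 4275 with DESeq2's Wald test (1955 and 2320), 5831, 6404 and 4842 with limma on log2(FPKM + 1), log2(FPKM + 0.1) and log2(FPKM + 1) without a filter (602, 686 and 493 higher), 6304 with no scaling factor (597 and 5707), 2414 without a filter (1104 and 1310), and 4038 and 4006 without macrophages or microglia of PFF-WT males.

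No paired analysis by replicate number was possible because the labels give no replicate numbers. Libraries were paired by their matched combination, and without this block 4 members were called, beside 13.2% of all genes called higher and 7.95% lower. With 1 library per combination, sex, genotype and treatment effects rest on 7 libraries per population, and genes near the limit of 3 counts, such as Clec9a and Ccr7 in microglia, cannot show small differences at this depth.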
